A study of Mus musculus with 77 samples.

Results

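Adrenomedullin is a secreted vasoactive peptide of the calcitonin family, and it signals through a receptor built from one G protein-coupled receptor and one small partner protein. The 5 transcripts followed here are those of the peptide precursor (*Adm*), the receptor (*Calcrl*) and the 3 partners, the receptor activity modifying proteins (*Ramp1*, *Ramp2* and *Ramp3*). Every array probe whose listed transcript belongs to one of these genes was taken, which gave 8 of the 55681 probes tested and 5 of the 21154 genes with a symbol. *Adm*, *Calcrl* and *Ramp2* had 1 probe each, *Ramp3* had 2 and *Ramp1* had 3. The probe with the brightest mean retina signal stood for its gene.

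The calcitonin receptor-like receptor encoded by *Calcrl* reaches the cell surface only with a partner. With the *Ramp2* or *Ramp3* product it binds adrenomedullin, and with the *Ramp1* product it prefers calcitonin gene-related peptide. Endothelial cells are a main site of *Calcrl* and *Ramp2* expression, where the pathway acts on vessel growth and on the barrier. *Adm* is a textbook target of hypoxia-inducible factor (HIF), the transcription factor that is stabilised when oxygen is low.

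The retinas came from C57BL/6 mice of an oxygen-induced retinopathy (OIR) experiment, in which newborn mice breathe excess oxygen, lose part of the retinal capillary bed and, back in room air, develop hypoxic retina and abnormal vessels. OIR mice were kept in 75% oxygen from postnatal day 7 until day 12 and control mice breathed 21% oxygen throughout. Both retinas of a mouse were pooled on 1 array, with 13 OIR mice per day and control groups of 12 (P12), 12 (P17) and 14 (P28) mice. The groups shared the strain and differed in oxygen and age. Oxygen was assigned to whole litters, so that mice of a group can share one, and the litter of each mouse is not given in the sources used here. On P12 the OIR mice came straight from oxygen.

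Each array carried retina RNA in one dye and a common reference RNA in the other. The labels assign the retina to Cy5, but 7 of 7 rod photoreceptor genes were brighter in Cy3 on 77 of 77 arrays, with a lowest log2 Cy3 over Cy5 of 1.04. Cy3 was therefore read as the retina in every value here, which turns each sign against the labels' dye assignment. An "offset ratio" below is the log2 of retina over reference after a constant of 50 was added to both background-corrected channels. A "deposited ratio" is the log2 ratio of the authors' own table, which has no offset and also differs in its background subtraction and dye normalization. The offset draws the ratios of dim probes towards 0, so both are given where they differ.

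The number of probes that rose well above the retina channel's background served as a measure of an array's brightness, and it ran from 13801 to 34328. Its group medians on P12 were 20074 (OIR) and 21122 (control). They were 20310 and 20868.5 on P17, against 32916 and 32192.5 on P28. Of the 11 slides used, those with arrays of both oxygen groups were 7 of 9 on P12, 6 of 10 on P17 and 3 of 9 on P28. Scanning took 4 days, of which 3 of 4 held both groups on P12, 3 of 4 on P17 and 1 of 4 on P28. Of the members, the retina signal of *Ramp2* and of both *Ramp3* probes was well above background on 77 of 77 arrays and that of *Adm* on 46. The brightest *Ramp1* probe reached this on 66 arrays and *Calcrl* on 2. In the reference channel, which holds the same RNA on every array, limma called 0 of 8 member probes between OIR and control mice on each day (0, 0 and 1 at an unadjusted p under 0.05, with 0, 1 and 0 of all probes called).

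*Adm* rose in the OIR retina on P17, by 2.49-fold on the offset ratio and 9.69-fold on the deposited ratio. It was the only one of the 5 genes that passed the test on that day. On P12 it did not pass the test on either scale. On P28 it passed in 1 of 13 processing settings, the deposited ratio, where it was 2.07-fold higher in OIR mice.

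On P17 the offset ratio of *Adm* (probe A_51_P265571) ran from −3.19 through a median of −1.76 to −0.84 in the 12 control mice, and from −1.20 through −0.67 to −0.12 in the 13 OIR mice. The control median was exceeded in 13 of 13 OIR mice and the highest control in 10 of them, while 10 of 12 controls lay below every OIR mouse. The probe was well above background on 13 of 13 OIR arrays and 6 of 12 control arrays. The means were −2.01 ± 0.79 (SD, n = 12) and −0.70 ± 0.29 (SD, n = 13), a difference of 1.31 on the log2 scale (SE 0.23, 95% interval 0.84 to 1.78, limma adjusted p = 0.00155). *Adm* was 1 of 8 member probes called on P17, against 1.14% of all probes tested. In whole retina, a larger number of *Adm*-expressing cells and more *Adm* RNA per cell cannot be told apart.

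The P17 groups of *Adm* did not overlap on the deposited ratio. Control mice ran from −5.37 through −4.58 to −3.78 and OIR mice from −2.40 through −1.19 to −0.32. The highest control mouse lay well below the lowest OIR mouse. Of all probes, 0.259% were higher without overlap on this scale. The difference was 3.28 on the log2 scale (SE 0.20, limma adjusted p = 7.35e-11), and 2.64% of all probes were called.

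**Figure D1:**
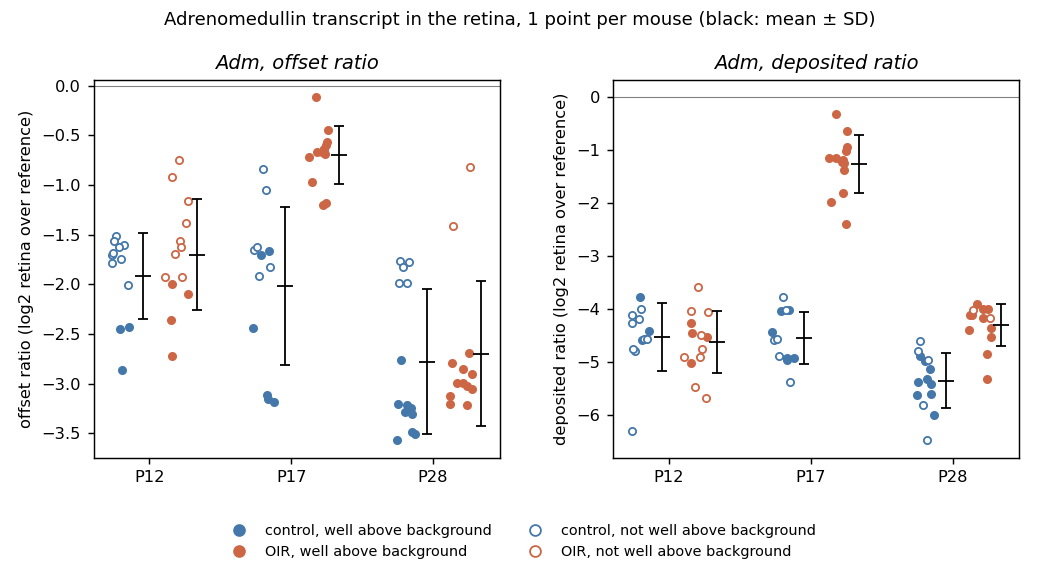
*Adm* in each mouse, as the log2 of retina over reference on the offset ratio and on the deposited ratio, by postnatal day; 1 point is 1 mouse, open points were not well above background, and black marks give mean ± SD. On P17 the 13 OIR mice lay from −1.20 to −0.12 on the offset ratio and from −2.40 to −0.32 on the deposited ratio, where all of them were above the 12 control mice.

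The 250 bases before the *Adm* start are shown because *Adm* was the member that rose on P17, beside those of *Ramp3*, which passed no OIR test. The sequences are from RefSeq on GRCm38.p6, chr7:110627407-110627656 for *Adm* and chr11:6658283-6658532 for *Ramp3*, both on the plus strand and written 5′ to 3′. Capitals mark the motif letters ACGTG or GCGTG, the core to which HIF is known to bind, searched on both strands, so that a minus-strand match reads CACGT or CACGC.
Adm: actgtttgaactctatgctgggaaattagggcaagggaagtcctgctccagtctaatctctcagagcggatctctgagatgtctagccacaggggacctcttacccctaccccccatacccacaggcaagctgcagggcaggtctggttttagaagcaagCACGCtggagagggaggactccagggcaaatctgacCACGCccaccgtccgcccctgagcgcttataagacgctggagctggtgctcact
Ramp3: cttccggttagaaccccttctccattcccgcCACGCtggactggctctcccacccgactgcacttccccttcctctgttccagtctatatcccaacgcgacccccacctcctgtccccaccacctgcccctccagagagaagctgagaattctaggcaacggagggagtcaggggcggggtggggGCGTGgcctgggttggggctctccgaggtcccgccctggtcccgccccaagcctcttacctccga
*Adm* held 2 matches, both GCGTG on the minus strand, beginning 90 and 54 bases before the start. *Ramp3* also held 2, beginning 219 and 65 bases before the start used for its window. The listed *Ramp3* gene begins earlier, at base 6658506, so the last printed *Ramp3* bases lie within the gene. The listed *Adm* gene begins at base 110627657, right after its printed bases. Over the 300-base windows that also take in 50 bases after the start, *Calcrl* held 1 and *Ramp1* held 0, and *Ramp2* had no entry, so 4 of 5 genes were matched. Either motif occurred in 43.8% of the 32851 windows in the table and 20.6% held at least 2. A match is a stretch of letters and says nothing of binding.

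On P12, at the end of the oxygen exposure, *Adm* (A_51_P265571) was near the background of most arrays. It was well above background on 3 of 12 control arrays and 4 of 13 OIR arrays. The offset ratio ran from −2.86 through −1.73 to −1.52 in control mice and from −2.72 through −1.70 to −0.75 in OIR mice. The groups overlapped over most of their range, although 4 of 13 OIR mice lay above every control mouse. None of these 4 had the probe well above background. On the deposited ratio 1 of 13 OIR mice lay above every control mouse. The difference was 0.21 (SE 0.20, limma adjusted p = 0.9999), and on the deposited ratio it was −0.097 (SE 0.24, adjusted p = 0.9996), where limma called 0.07% of all probes. The sign depended on the scale.

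On P28 the picture for *Adm* (A_51_P265571) depended on the scale. The offset ratio ran from −3.57 through −3.21 to −1.77 in 14 control mice and from −3.21 through −3.00 to −0.82 in 13 OIR mice. The 2 OIR mice and 5 control mice that stood highest were those whose probe was not well above background. The means of −2.78 ± 0.73 and −2.70 ± 0.73 (SD, n = 14 and 13) differed by 0.079 (SE 0.27, limma adjusted p = 0.935), although 12 of 13 OIR mice lay above the control median. On the deposited ratio control mice ran from −6.48 through −5.34 to −4.61 and OIR mice from −5.33 through −4.17 to −3.91. Here 13 of 13 OIR mice lay above the control median and 11 above every control mouse, with a difference of 1.05 (SE 0.18, limma adjusted p = 0.00356). With array brightness as a covariate the offset difference was 0.33 (adjusted p = 0.213), with scan day as a block 0.30 (adjusted p = 0.162) and with slide as a block 0.27 (adjusted p = 0.0796). Within the 3 slides that held both groups on P28 it was higher in OIR mice on 3 of 3, by 0.18 to 0.37. No member probe was called on P28 on the offset ratio (limma, 0 of 8, and 0 at an unadjusted p under 0.05, against 0.0611% of all probes), and 1 was called on the deposited ratio, against 0.203% of all probes.

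Within groups the offset ratio of *Adm* fell as array brightness rose, and the deposited ratio did not. Over the 6 groups Pearson's r of the offset ratio with brightness lay between −0.96 and −0.91 in all but the P17 OIR mice, where it was 0.11, and Spearman's rho lay between −0.93 and −0.12. The relation passed a permutation test in 5 of 6 groups after adjustment over the 48 relations of this kind that were computed, with adjusted p from 0.00016 to 0.0177 in those groups. The lowest raw p of these *Adm* relations in the permutation test was 2e-05. Over the 48 relations it was 1e-05, the smallest that the permutations can give, and belonged to *Ramp2*. In the P28 OIR mice the relation of *Adm* to brightness rested on the 2 mice farthest from the median brightness, without which r was 0.57. For the deposited ratio r lay between −0.55 and 0.20, rho between −0.50 and 0.12, and 0 of 6 groups passed (0 at an unadjusted p under 0.05), with a lowest adjusted p of 0.100. The P17 difference was 1.25 (limma adjusted p = 0.000131) with brightness as a covariate. Within the 6 slides that held both groups on P17 OIR mice were higher on 6 of 6, by 0.43 to 2.51, and within the 3 such scan days on 3 of 3, by 0.86 to 2.10.

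In order of the mean offset ratio, *Adm* was lowest in P28 control mice, followed by P28 OIR, P17 control, P12 control, P12 OIR and P17 OIR mice. Each step but the one into P17 OIR mice was smaller than the SD of the groups on either side, at 0.079, 0.69, 0.099 and 0.21, and the last was 1.003. From P12 to P17 *Adm* rose in OIR mice by 1.003 on the log2 scale (limma adjusted p = 0.00420) and differed by −0.099 in control mice (adjusted p = 0.985). From P17 to P28 it fell in OIR mice, from the mean of −0.70 to −2.70 (adjusted p = 7.50e-10), and by 0.77 in control mice (adjusted p = 0.0237), a fall that was not called in the retina channel alone (−0.040, adjusted p = 0.802). These age contrasts share mice with the OIR contrasts. Array brightness was higher on P28 than on the other days, which moves with the fall. Scan day moved with age as well. The last scan day held 11 of 13 OIR and 9 of 14 control arrays on P28. On P17 that scan day held 2 of 13 OIR and 5 of 12 control arrays. The parts of brightness and scan day in the fall were not tested. On the deposited ratio the falls were 3.04 (adjusted p = 5.44e-20) and 0.81 (adjusted p = 0.00402), and the rise in OIR mice was 3.36 (adjusted p = 1.39e-22).

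The change of the *Adm* effect between days was tested directly. From P12 to P17 the OIR effect grew by 1.10 on the offset ratio (SE 0.35, limma adjusted p = 0.264), which did not pass, and by 3.37 on the deposited ratio (adjusted p = 3.60e-14), which did. From P17 to P28 it dropped by 1.23 on the offset ratio (adjusted p = 0.108) and by 2.23 on the deposited ratio (adjusted p = 2.82e-07). Over 10 processing settings the first change was called in 6, with values of 0.88 to 3.37, and the second in 5, with values of −2.23 to −0.86. The offset ratio was called for 1 of 8 member probes in the first of these contrasts, which was *Ramp2*, against 0.487% of all probes. In the second it was called for 0 of 8 by limma, with 2 at an unadjusted p under 0.05, against 0.278% of all probes. The deposited ratio was called for 2 of 8 (*Adm* and *Ramp2*) against 1.39% and for 1 of 8 (*Adm*) against 0.584%.

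*Ramp2*, the partner that gives the receptor its adrenomedullin specificity and is abundant in endothelium, was lower in OIR mice on P12, right after the oxygen exposure. It was 1.58-fold lower on the offset ratio. On P17 and P28 its means were higher in OIR than in control mice, but neither difference passed the test.

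On P12 *Ramp2* (A_55_P2101336) ran from 1.23 through 1.68 to 1.99 on the offset ratio in the 12 control mice and from 0.39 through 1.12 to 1.75 in the 13 OIR mice. Of the OIR mice, 12 of 13 lay below the control median and 10 lay below every control mouse, and 5 controls lay above every OIR mouse. The means of 1.68 ± 0.24 and 1.02 ± 0.35 (SD) differed by −0.66 (SE 0.12, limma adjusted p = 0.0341). It was the only one of 8 member probes called on P12, against 0.0216% of all probes. On the deposited ratio controls ran from 2.58 through 3.57 to 3.82 and OIR mice from 2.44 through 2.82 to 3.71, with a difference of −0.55 (SE 0.15, limma adjusted p = 0.469). The size was similar on that scale and the call was lost. Within slides OIR mice were lower on 7 of 7, by −0.71 to −0.22, and within scan days on 3 of 3.

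On P17 *Ramp2* ran from 0.75 through 1.48 to 2.18 in control mice and from 1.12 through 1.74 to 2.21 in OIR mice. On this scale, the offset ratio, the ranges overlapped almost wholly, though 10 of 13 OIR mice exceeded the control median. The difference was 0.25 (SE 0.15, 95% interval −0.053 to 0.56, limma adjusted p = 0.575), and OIR mice were higher on 6 of 6 slides, by 0.096 to 0.64. On the deposited ratio it was 0.53 (adjusted p = 0.141), and on the retina channel alone, without the reference, it was 0.43 (adjusted p = 0.00731). On P28 control mice ran from 0.79 through 1.15 to 1.44 and OIR mice from 0.50 through 1.35 to 1.84. The difference was 0.20 (SE 0.097, limma adjusted p = 0.671) and 11 of 13 OIR mice exceeded the control median, while on the deposited ratio the difference was 0.0076 (adjusted p = 0.991). Within slides the offset ratio was higher in OIR mice on 3 of 3, by 0.25 to 0.32.

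The *Ramp2* effect changed from lower on P12 to a higher mean on P17. The OIR effect differed between these days by 0.91 (SE 0.18, limma adjusted p = 0.00106) on the offset ratio and by 1.08 (adjusted p = 0.00142) on the deposited ratio. Between P12 and P28 it differed by 0.86 (SE 0.17, adjusted p = 0.0171) on the offset ratio, where *Ramp2* was 1 of 8 member probes called against 0.0395% of all probes, and by 0.56 (adjusted p = 0.641) on the deposited ratio, where 0.176% of all probes were called. Within OIR mice *Ramp2* rose by 0.73 from P12 to P17 (adjusted p = 1.21e-05) and fell by 0.44 from P17 to P28 (adjusted p = 0.00243). In control mice the steps were −0.18 (adjusted p = 0.835) and −0.39 (adjusted p = 0.0261). In order of the mean offset ratio P12 OIR mice were lowest, then P28 control, P28 OIR, P17 control, P12 control and P17 OIR mice, and every pair of neighbours differed by less than the larger of their SDs.

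**Figure D2:**
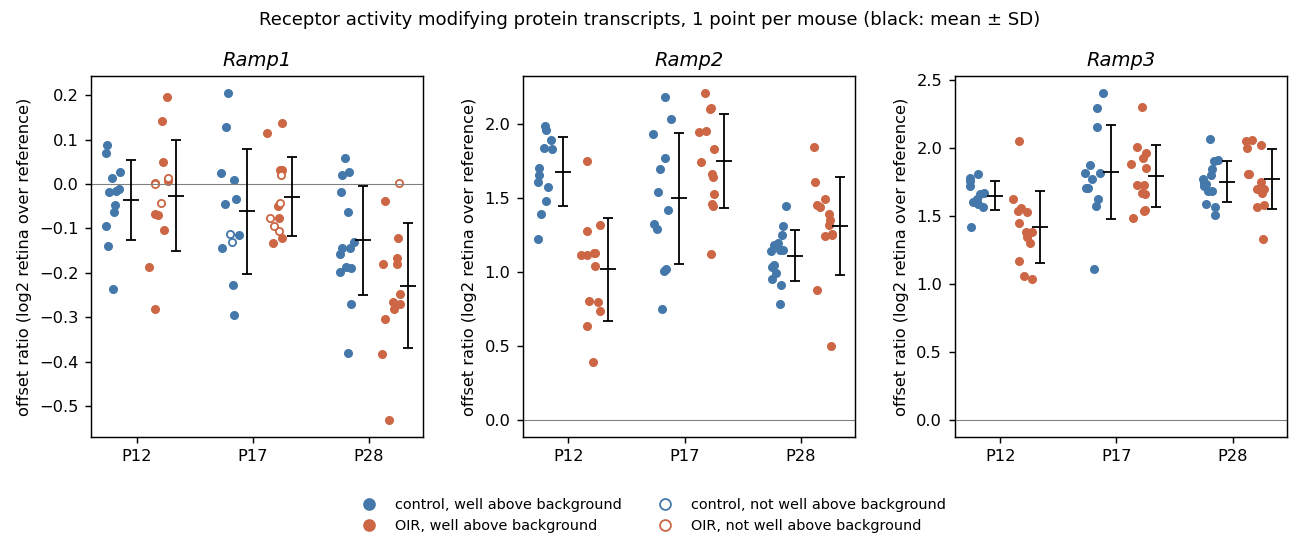
Offset ratio (log2 retina over reference) of *Ramp1*, *Ramp2* and *Ramp3* in each mouse by postnatal day, with 1 point per mouse, open points not well above background, and mean ± SD in black; the y axes differ. *Ramp2* was lower in OIR mice on P12, at 1.02 against 1.68, and the *Ramp1* means lay between −0.23 and −0.027.

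*Ramp3*, the other partner that lets the receptor bind adrenomedullin, did not pass the OIR test on any day. On P12 its brighter probe A_55_P2101340 ran from 1.42 through 1.64 to 1.81 in control mice and from 1.04 through 1.39 to 2.05 in OIR mice. Of the OIR mice, 12 of 13 lay below the control median and 7 below every control mouse, while the highest value was also an OIR mouse. The difference was −0.23 (SE 0.080, limma p = 0.00802, adjusted p = 0.9999). The second probe, A_55_P1954835, gave −0.32 (SE 0.12, adjusted p = 0.9999), also with 12 of 13 below the control median. Within slides the brighter probe was lower on 6 of 7, from −0.42 to 0.34. On the deposited ratio the group means on P12 were 2.27 ± 0.31 and 2.19 ± 0.19.

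On P17 and P28 the *Ramp3* means of the 2 oxygen groups lay close together. The brighter probe had means of 1.82 ± 0.35 in control and 1.79 ± 0.23 in OIR mice on P17, a difference of −0.029 (95% interval −0.26 to 0.20, adjusted p = 0.941). On P28 the means were 1.75 ± 0.15 and 1.77 ± 0.22, a difference of 0.021 (interval −0.12 to 0.16, adjusted p = 0.935). The second probe gave −0.12 and 0.063 on these days, within intervals of −0.44 to 0.20 and −0.11 to 0.23. Within OIR mice *Ramp3* rose by 0.37 from P12 to P17 (limma adjusted p = 0.00457), but the change of the OIR effect on *Ramp3* between these days did not pass (0.20, 95% interval −0.055 to 0.46, adjusted p = 0.9999).

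*Ramp1*, the partner that turns the receptor towards calcitonin gene-related peptide, passed no OIR test on either scale. The group means of its brightest probe A_55_P1982996 lay between −0.23 and −0.027 on the offset ratio and between −0.44 and 0.0996 on the deposited ratio. On P28 control mice ran from −0.38 through −0.14 to 0.06 and OIR mice from −0.53 through −0.25 to 0.0031. Of the OIR mice, 10 of 13 lay below the control median, and the difference was −0.10 (SE 0.050, limma adjusted p = 0.671). The differences on P12 and P17 were 0.0087 and 0.033, within intervals of −0.080 to 0.098 and −0.061 to 0.13. The probe A_51_P348665 was well above background on 24 arrays, among them 9 of 14 control and 11 of 13 OIR arrays on P28, and A_52_P172014 on 1. The deposited group means of A_51_P348665 were 0.12 and 0.27 on P28 and −0.79 or lower on the other days.

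*Calcrl*, the receptor itself, could not be followed with the single probe on this array. A_52_P58949 was well above background in the retina channel on 2 of 77 arrays and in the reference channel on 1. The group means of the offset ratio lay between −0.003 and 0.08, which is what a probe with no signal in either channel gives. No fold change is therefore given for it, and the receptor's level in these retinas was not detectable with this probe.

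**Figure D3:**
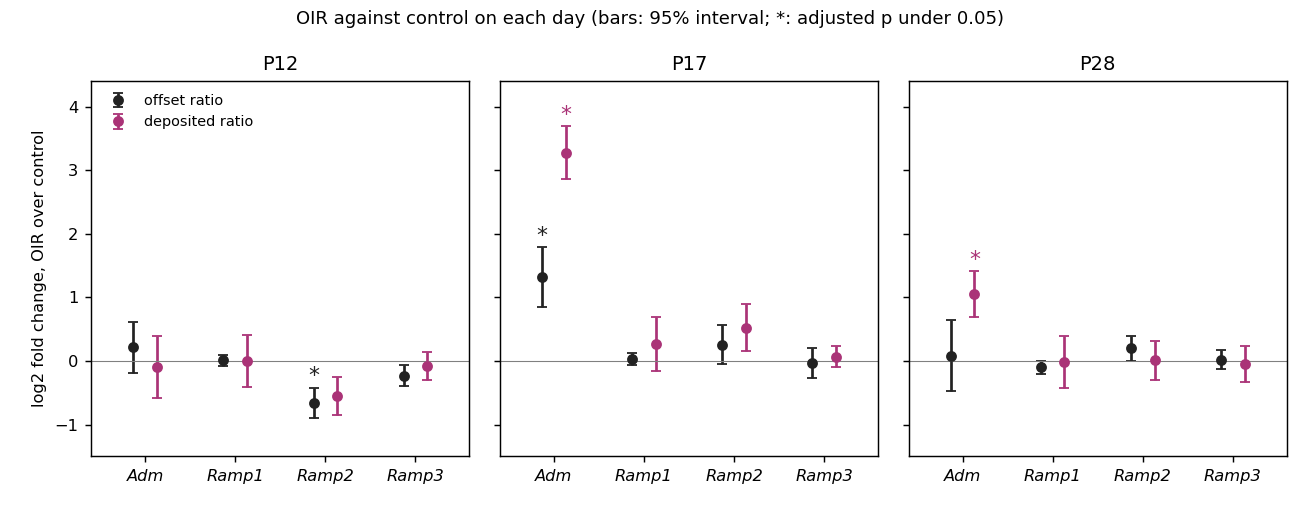
Log2 fold change of OIR over control mice for the brightest probe of *Adm*, *Ramp1*, *Ramp2* and *Ramp3* on each day, on the offset ratio and the deposited ratio, with bars that span the 95% interval and an asterisk where the adjusted p is under 0.05. *Adm* on P17 stands apart at 1.31 and 3.28, and *Ramp2* on P12 lies at −0.66 and −0.55.

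Member calls in the age contrasts were read against the share of all probes called. Of the 8 member probes, 3 were called from P12 to P17 in OIR mice (*Adm*, *Ramp2* and *Ramp3*), against 3.42% of all probes, and 4 on the deposited ratio, which added the second *Ramp3* probe, against 7.51%. From P17 to P28, 4 were called in OIR mice (*Adm*, *Ramp2* and 2 probes of *Ramp1* that disagreed, of which A_55_P1982996 fell by 0.20 and the dim A_51_P348665 rose by 0.12) against 40.6% of all probes, and 3 in control mice against 13.4%. These counts were 7 against 44.3% and 6 against 19.7% on the deposited ratio. There *Ramp3* fell by 0.54 in OIR mice (limma adjusted p = 7.57e-05) and by 0.42 in control mice (adjusted p = 0.00550), where the offset ratio differed by −0.018 and −0.068 without a call. The deposited ratio of this *Ramp3* probe fell with array brightness within both P28 groups (r = −0.93 in each), and arrays were brighter on P28. The parts of brightness and of scan day in these falls were not tested. From P12 to P17 in control mice limma called 0 of 8, with 0 at an unadjusted p under 0.05 and 0 on the deposited ratio, against 1.28% and 2.57% of all probes.

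Some endothelial genes fell with *Ramp2* on P12. Of 12 endothelial marker genes, 2 fell on P12 (*Egfl7*, a vessel-secreted factor, by 0.86, and the surface antigen *Cd34* by 0.81), against 0.0216% of all probes called. On that day 10 of 12 had a negative difference, with a median of −0.26 against a median near 0 over all probes. On P17 the same *Egfl7* and *Cd34* rose by 1.09 and 1.33, against 1.14% of all probes called. The P17 difference was positive in 9 of the 12 and negative in 3, with a median of 0.085. On P28 limma called 0 of the 12 (3 at an unadjusted p under 0.05, 0 on the deposited ratio), against 0.0611% of all probes. The mean offset ratio over the 12 genes ran from 0.27 to 0.89 in control and from 0.0043 to 0.38 in OIR mice on P12, and from 0.13 to 0.88 and 0.45 to 1.23 on P17. Within each of the 6 groups the offset ratio of *Ramp2* rose with this mean, with r from 0.75 to 0.96, rho from 0.73 to 0.97 and adjusted p from 0.00016 to 0.00503 over the 48 relations. Without the 2 mice farthest from the median, r was 0.45 in the P28 OIR mice and 0.72 to 0.95 in the other groups. The points share array brightness, with which the offset ratio of *Ramp2* also correlated in 5 of 6 groups (r from 0.33 to 0.94, rho from 0.10 to 0.93). By rho only the P12 OIR and P17 control mice passed the permutation test, and elsewhere the adjusted p was 0.0542 or higher. In the P28 OIR mice r was 0.80, and −0.41 without the 2 mice farthest from the median brightness. The deposited ratio of *Ramp2* ran against brightness instead, with r from −0.88 to −0.15 and 4 of 6 groups passing the permutation test. That of *Ramp3* did the same, with r from −0.93 to −0.28 and 4 of 6 groups passing. Without the 2 farthest mice, these r lay between −0.78 and 0.029 for *Ramp2* and between −0.90 and −0.27 for *Ramp3*. The part of brightness in the relation of *Ramp2* to the endothelial mean was not tested.

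Measured relative to the endothelial mean of the same array, *Ramp2* was still lower in OIR mice on P12, by −0.32 (SE 0.081, limma adjusted p = 0.000681). Relative to that mean 91% of all probes were called higher and 0.0269% lower, since the mean itself fell. This call held in 3 of 5 settings, with values of −0.43 to 0.31 over the 5, and was lost in the following ones. Against the 4 endothelial genes that were well above background on all 77 arrays the difference was 0.076 (adjusted p = 0.386), and on the deposited ratio it was 0.31 (adjusted p = 0.241). On P17 *Ramp2* differed from the endothelial mean by −0.014 (adjusted p = 0.885) and from the mean of the 4 bright genes by −0.33 (adjusted p = 0.00135), and on P28 from the endothelial mean by 0.074 (adjusted p = 0.316), where 0.097% of all probes were called.

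*Adm* on P17 exceeded the rise of the endothelial mean. Relative to it *Adm* was higher in OIR mice by 1.05 (SE 0.27, limma adjusted p = 0.00352), where 0.356% of all probes were called higher, and the call held in 5 of 5 settings with values of 0.73 to 2.62. On P12 the relative difference was 0.55 (adjusted p = 0.0299), on a day when most probes were called higher. On P28 it was −0.045 (adjusted p = 0.902). *Ramp3* was lower than the endothelial mean on P17 by −0.30 (adjusted p = 0.00971), as were 77.6% of all probes, and on P12 it differed by 0.10 (adjusted p = 0.225).

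**Figure D4:**
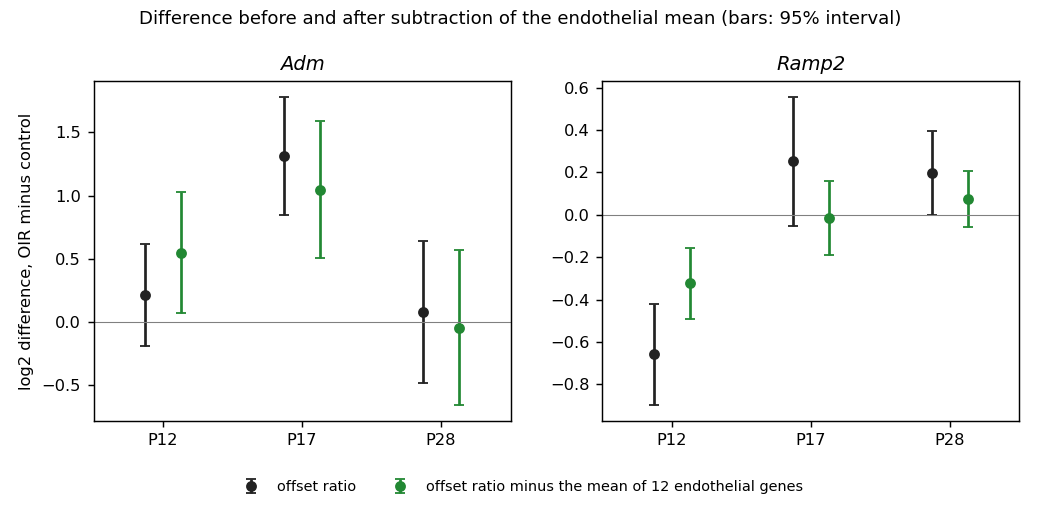
OIR minus control difference (log2) of *Adm* and *Ramp2* on each day, as measured and relative to the mean of 12 endothelial genes on the same array, with bars that span the 95% interval. The P17 difference of *Adm* remained above 0 at 1.05, and that of *Ramp2* was −0.014.

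Other genes of the pathway were read from lists, as the brightest probe of each gene. Of all probes, 0.0216%, 1.14% and 0.0611% were called on P12, P17 and P28, and 0.07%, 2.64% and 0.203% on the deposited ratio. At such shares a short list can hold no call. Of 8 other ligands and receptors of the family, limma called 0 on each of the 3 days (0, 0 and 1 at an unadjusted p under 0.05, and 0 on the deposited ratio). *Crcp*, which encodes a cytosolic component of calcitonin gene-related peptide receptor signalling, was well above background on 77 arrays and differed by −0.0080, 0.031 and −0.099 on P12, P17 and P28. The others were dim. *Calca* was well above background on 28 arrays, the scavenging receptor *Ackr3* on 27, *Gpr182*, once named an adrenomedullin receptor, on 13, *Calcr* on 7, *Adm2* on 5, and *Calcb* and *Iapp* on 0. The second ligand of the receptor, *Adm2*, had the largest P17 difference of the list at 0.18 (SE 0.11, limma adjusted p = 0.572). Of the 8 differences 6 were positive on P17.

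The next 2 lists stand against the same shares of all probes, 0.0216%, 1.14% and 0.0611% on P12, P17 and P28. On the deposited ratio these were 0.07%, 2.64% and 0.203%. Of 9 genes for peptide processing, binding and breakdown, only *Cpe*, a carboxypeptidase that trims peptide precursors, passed on any day. It fell by 0.38 on P17 (limma adjusted p = 0.046) and by 0.46 on the deposited ratio, where it did not pass (adjusted p = 0.10). Of 19 genes of signalling below the receptor, such as the cyclic AMP and nitric oxide arms, limma called 0 on each day (2, 3 and 2 at an unadjusted p under 0.05, and 1, 2 and 0 on the deposited ratio), with medians of −0.011, 0.0019 and −0.016.

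Some other HIF targets rose beside *Adm* on P17. Of 12 listed genes, 3 passed and rose, against 1.14% of all probes called. In 11 of 12 the difference was positive, with a median of 0.26 against 0.001 over all probes. *Ndufa4l2*, a mitochondrial protein induced in hypoxia, rose by 2.03 (limma adjusted p = 1.85e-12). *Vegfa*, the main vascular growth factor, rose by 0.97 (adjusted p = 2.15e-08) and *Bnip3*, a mitophagy receptor, by 0.84 (adjusted p = 2.82e-05). The mean of the list ran from −0.45 to −0.21 in control and from −0.079 to 0.32 in OIR mice, without overlap. The list was chosen with earlier results of these data known, and no share of all probes was computed for list means. With the deposited ratio 6 passed on P17, against 2.64% of all probes. On P12 limma called 0 of 12 (3 at an unadjusted p under 0.05, 0 on the deposited ratio), against 0.0216% of all probes, and the median was −0.12. On P28 only *Ndufa4l2* passed, against 0.0611% of all probes. Its rise of 0.79 (limma adjusted p = 8.29e-08) was not called on the deposited ratio (adjusted p = 0.116).

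Markers of several cell types moved with *Adm* on P17, and their part in its rise was not tested. The counts that follow stand against 1.14% of all probes called on P17, and against 0.0216% on P12 and 0.0611% on P28. Of 6 endothelial tip cell genes, 3 rose (*Esm1* by 1.56, *Apln* by 1.42 and *Pdgfb* by 0.79) and all 6 differences were positive, with list means of −0.86 to −0.21 in control and −0.20 to 0.88 in OIR mice. Of 6 astrocyte and reactive glia genes, 3 rose (the intermediate filaments *Vim* by 1.19 and *Gfap* by 0.98, and *Lcn2* by 0.86) and 4 differences were positive, with list means of −0.59 to −0.40 and −0.30 to 0.39. Of 8 mural cell genes *Cspg4* and *Notch3* rose by 0.73 and 0.63 and all 8 differences were positive. Of 8 microglia and macrophage genes *Csf1r* and *Aif1* rose by 0.51 and 0.33 and 7 differences were positive. Of 3 red blood cell genes *Hba-a1* rose by 1.38 and all 3 differences were positive. The genes that fell were *Nefl* of 5 ganglion cell genes (by 0.77, but 0.15 higher on the deposited ratio), *Slc6a9* of 4 amacrine genes (by 0.36), *Rpe65* of 5 pigment epithelium genes (by 0.81) and *Bfsp2* of 5 lens genes (by 0.31), and 4, 4, 5 and 5 differences in these lists were negative. Of 7 rod genes limma called 0 on each day (0, 1 and 0 at an unadjusted p under 0.05, 0 on the deposited ratio), and likewise 0 of 6 Mueller glia genes (1, 4 and 0 unadjusted, 0 on the deposited ratio). All 6 Mueller glia differences were negative on P12 and on P17, with medians of −0.24 and −0.36, and 4 of 6 were positive on P28. On P12 *Abcc9*, 1 of 8 mural cell genes, fell by 0.37 beside *Ramp2*, and on P28 *Csf1r* rose by 0.41.

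Among genes with a symbol that were well above background on at least 39 arrays, the patterns most like each member's over the 77 arrays were listed by Pearson's r, as a description in which the points share array brightness. For *Adm*, of 11799 such genes, those named here are *Timp1*, *Flnc*, *Cmtm3* and *Arpc1b*, at 0.955 to 0.946. For *Ramp2* the closest were *Ushbp1* (0.865), *Abcc9* (0.833), *Robo4* (0.831), *Higd1b* (0.813) and *Cdh5* (0.799), among them known endothelial and mural cell genes. For *Ramp3* they were *Arl4d* (0.857), *Fabp12*, *Sgip1*, *Crxos* and *Gnb5* (0.814), and for *Ramp1* *Cpne2* (0.818), *Utf1*, *Krtap10-10*, *Ntn1* and *Sall4* (0.80). For *Calcrl*, whose probe was at background, the highest r was 0.573.

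Within the P17 groups the members were compared with each other mouse by mouse. On the offset ratio 3 of 20 relations passed a permutation test with adjustment over the 20, all in control mice. *Adm* ran against *Ramp3* (r = −0.94, rho = −0.97, adjusted p = 0.0004) and against *Ramp2* (r = −0.90, adjusted p = 0.0011), and *Ramp2* ran with *Ramp3* (r = 0.86, adjusted p = 0.00153). Without the 2 mice farthest from the median of the first gene r was −0.89, −0.93 and 0.78. In the same control mice array brightness correlated with *Adm* at −0.96, with *Ramp2* at 0.94 and with *Ramp3* at 0.91. With the deposited ratio 0 of the 20 relations passed (1 at an unadjusted p under 0.05), with r from −0.36 to 0.59 and a lowest adjusted p of 0.418. In OIR mice 0 of 10 relations passed the permutation test on either scale, and 0 had an unadjusted p under 0.05.

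**Figure D5:**
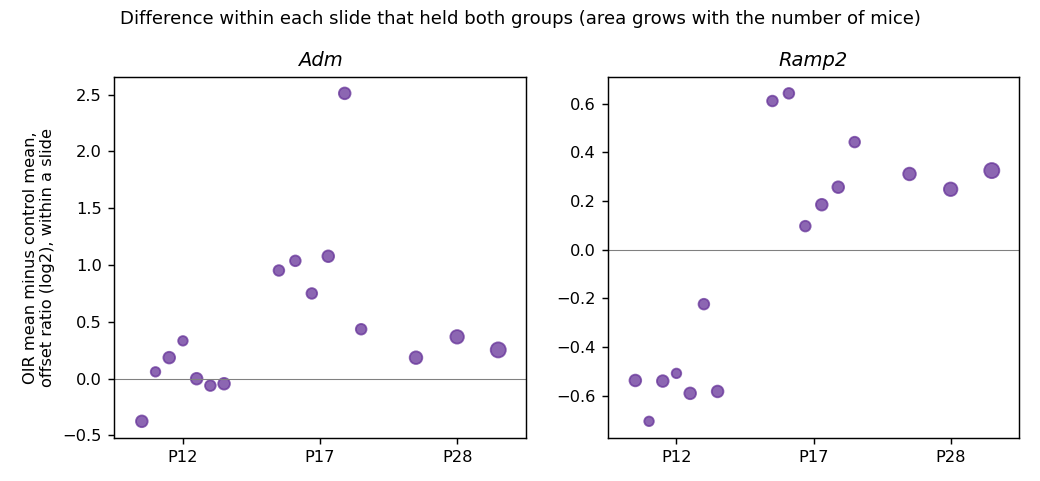
OIR minus control difference of the offset ratio (log2) within each slide that held both groups, for *Adm* and *Ramp2* by day; 1 point is 1 slide, and its area grows with the number of mice on it. *Ramp2* was lower on 7 of 7 slides on P12, and *Adm* higher on 6 of 6 slides on P17.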

How the data were processed

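Retina RNA of 77 mice (groups of 12 to 14) was hybridised with a common reference to two-color Agilent arrays of 62976 spots. Per the file headers, the authors' scans were read with Agilent Feature Extraction 10.7.3.1, and the deposited files hold spot intensity values and flags. The authors' table holds log2 ratios of the background-subtracted, dye-normalized signals, which matched Cy3 over Cy5 within 0.001 on 100% of single-spot probes. Oxygen was assigned by litter, and the litter of each mouse is not given in the sources used here, so that mice were treated as independent and p-values do not account for litters.

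From the deposited intensity values, limma 3.58.1 (R 4.3.3) applied normexp to the median signals with an offset of 50 and loess within each array. Control spots and outlier spots (0.290 to 0.582% per array) were left out, and spots of a probe were averaged. OIR and control mice were compared on each day with lmFit and eBayes, the moderated test of the methods, over all 55681 probes with Benjamini-Hochberg adjustment at 0.05. Intervals used the moderated degrees of freedom. Contrasts between days used 1 fit over the 6 groups. Permutation tests of correlations were two-sided, with 100000 resamples. The number of arrays limits the precision, and p-values measure the spread between mice. The fitting steps were tested on simulated data.

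The members, the pathway lists and the marker lists were chosen with earlier results of these data known. The genes named are all member probes, list genes past the threshold on any day, the other family ligands and receptors, and the 5 genes most like each member, of which 1 is not reported here. Transcripts were named through RefSeq, which gave 28026 probes a symbol. Alternatives covered background correction, offset, the deposited table, slide and scan day as blocks, dim probes, the retina channel alone, array weights, the variance model and array brightness.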

Additional observations from a re-analysis of the deposited data

Results flagged for a closer look

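The OIR effect on *Ramp2* differed between days. On the offset ratio OIR minus control was −0.66 on P12, where OIR mice were lower, against 0.25 and 0.20 on the later days P17 and P28. The test of the difference itself gave 0.91 from P12 to P17 (limma adjusted p = 0.00106) and 0.86 from P12 to P28 (adjusted p = 0.0171). From P12 to P17 the difference passed in 10 of 10 settings, with values of 0.80 to 1.26. From P12 to P28 it passed in 8 of 10, with values of 0.56 to 0.89 and an adjusted p of 0.641 on the deposited ratio.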

How the results depend on the processing

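The rise of *Adm* on P17 kept its direction and call in 13 of 13 settings, with log2 differences of 1.06 to 3.28 and adjusted p from 7.35e-11 to 0.00959. The fall of *Ramp2* on P12 kept its direction in 13 of 13, with −0.68 to −0.53, and its call in 9. It lost the call without background subtraction (−0.59), at offset 0 (−0.68), on the deposited ratio (−0.55) and with a trended, robust variance (−0.66). Calls were gained for *Adm* on P28 on the deposited ratio (1.05) and for *Ramp2* on P17 in the retina channel alone (0.43). Relative to the endothelial mean, *Adm* on P28 and *Ramp2* on P17 and on P28 each gained a call in 1 of 5 settings. *Ramp3* on P12 gained it in 2 of 5, with values of 0.0022 to 0.79, and *Adm* on P12 kept its call in 4 of 5. Over these relative settings 80.5 to 98.8% of all probes were called on P12. The shares were 66.8 to 93.5% on P17 and 0.0557 to 65.7% on P28. The change of the *Adm* effect gained a call from P12 to P17 at offset 0 (2.90), on the deposited ratio (3.37), with slide as a block (1.08) or a random block (1.08), in the retina channel alone (1.70) and with array weights (0.95), and from P17 to P28 under the same settings except the random block (−2.14, −2.23, −0.86, −1.34 and −1.01). That of *Ramp2* from P12 to P28 lost it at offset 0 (0.68) and on the deposited ratio (0.56). From P17 to P28 calls were lost for *Adm* in control mice in the retina channel alone (−0.040), for *Ramp2* in control mice without background subtraction (−0.32), and in OIR mice for *Ramp1* probes A_55_P1982996 (slide as a block −0.11, retina channel alone −0.31) and A_51_P348665 (slide as a block 0.079, random block 0.093). The causes were not tested. No paired analysis was possible because no mouse number is shared between groups. Scan day as a block and the brightness covariate were chosen after seeing the data.

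Directions that turned were, with 1 exception, of differences not called in the report. For *Adm* on P12 the difference was −0.071 at offset 0, −0.097 on the deposited ratio, −0.015 with slide as a block and −0.14 in the retina channel alone. On P28 it was −0.016 without background subtraction. Relative to the endothelial mean on P28 it was 0.92 on the deposited ratio and 0.13 with slide as a block. Its change from P12 to P28 was 0.76 at offset 0, 1.15 on the deposited ratio, 0.22 with slide as a block, 0.072 with slide as a random block and 0.36 in the retina channel alone, and its step in control mice from P12 to P17 was 0.023 with array weights. For *Ramp1* the P12 difference was −0.0079 at offset 0, −0.0030 on the deposited ratio, −0.0060 with slide as a block and −0.010 with the brightness covariate, and the P17 difference −0.0038 with array weights. For *Ramp3* the P17 difference was 0.087 at offset 0, 0.068 on the deposited ratio, 0.0038 with slide as a block, 0.030 with scan day as a block and 0.013 with the brightness covariate, and the P28 difference −0.034 at offset 0 and −0.049 on the deposited ratio. For *Ramp2* the P28 difference was −0.0065 at offset 0 and its change from P17 to P28 0.013 without background subtraction. The exception was *Ramp2* relative to the endothelial mean on P12, which was 0.076 with the 4 bright endothelial genes and 0.31 on the deposited ratio. On P28 the relative value was −0.0047 and −0.12 under the same changes.

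Shares of all 55681 probes called moved more. For OIR against control, 0.0216%, 1.14% and 0.0611% on P12, P17 and P28 became 0.07%, 2.64% and 0.203% on the deposited ratio, 0.0718%, 2.99% and 0.296% in the retina channel alone, and 0.0377%, 2.82% and 0.21% with array weights. The P17 and P28 shares were 3.88% and 0.201% with the brightness covariate, 1.8% and 0.224% with scan day as a block and 1.82% and 0.097% with slide as a random block. The P28 share was 0.219% with slide as a block and 0.149% in 1 fit over 6 groups. For the changes from P12 to P17, P17 to P28 and P12 to P28, 0.487%, 0.278% and 0.0395% became 1.39%, 0.584% and 0.176% on the deposited ratio, 1.72%, 0.97% and 0.144% in the retina channel alone, 1.57%, 0.758% and 0.196% with array weights, and 1.01%, 0.431% and 0.0952% at offset 0. The first and the last were 0.943% and 0.101% with slide as a block and 0.742% and 0.0898% with slide as a random block. From P12 to P17 the 1.28% in control mice and 3.42% in OIR mice became 2.57% and 7.51% on the deposited ratio, 3.01% and 8.08% in the retina channel alone, 2.91% and 8.48% with array weights, 2.04% and 6.28% at offset 0, 3.17% and 7.25% with slide as a block, and 2.27% and 5.58% with slide as a random block. From P17 to P28 the 13.4% in control mice became 35.6% with array weights, and the 40.6% in OIR mice 17.2% with slide as a block. Relative to the endothelial mean the 0.097% on P28 became 0.0557% on the deposited ratio, 65.7% with slide as a block and 39.4% with tip cell genes added. The 3 correlations between members on P17 became 0 on the deposited ratio (permutation test, 1 at an unadjusted p under 0.05). Signal over background limits *Adm*, which was well above background on 3 of 12 control and 4 of 13 OIR arrays on P12, 6 of 12 control arrays on P17, and 9 of 14 control and 11 of 13 OIR arrays on P28, and with it the size of its P17 fold, and also *Calcrl* and 2 of the 3 *Ramp1* probes.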
